A study of Mus musculus with 2 samples.

Results

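The genes described here are 39 genes of the interferon system of the mouse, measured in luminal epithelial cells of the prostate. They were chosen by name, as receptors, RNA and DNA sensors, transcription factors and antiviral effectors, and all 39 were found among the 18724 genes of the table. All 39 also passed the minimum for a measured gene, a mean of at least 10 normalised read counts over both libraries, as did 17183 genes in all. Luminal cells of 18-week-old mice had been sorted by flow cytometry into cells that kept a GFP label carried on histone 2B (L-GFP+, label-retaining) and cells that did not (L-GFP-, non-retaining), and total RNA of each population was sequenced. Each division dilutes the labelled histone, which therefore persists in cells that seldom divide. The sources used here do not give the strain, the promoter that drives the labelled histone, the sort markers or the number of animals pooled. No castration or other treatment is named for either population.

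Interferons are cytokines that cells release when they sense foreign or misplaced nucleic acid. Type I interferons act through Ifnar1 and Ifnar2, and interferon gamma, which lymphocytes make, through Ifngr1 and Ifngr2. JAK kinases bound to these receptors activate STAT proteins, and a complex that holds Stat2 and Irf9 binds the interferon-stimulated response element in the promoters of antiviral genes. Epithelia keep low levels of many of these effectors without infection.

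The response element is the sequence these genes are known to share, so it was searched for in the RefSeq promoter windows of GRCm38.p6, from 250 bases before to 50 bases after each start. The letters searched were GAAA, then any 2 bases, then GAAA, on either strand. A match on the other strand reads TTTC, any 2 bases, TTTC. Of 34 members with a window, 15 (44.1%) held at least 1 match, against 3.77% of the 11818 measured genes with a window. Over windows instead of genes, the shares were 15 of 41 (36.6%) and 1131 of 32851 (3.44%). The stretches below are printed 5′ to 3′ on the strand of the gene with the matches in capitals, and they show that the element lies before or just after the start of members on both sides of the comparison.
Rsad2, chr12:26456551-26456584, minus strand: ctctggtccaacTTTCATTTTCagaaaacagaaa
Stat2, chr10:128270264-128270297, plus strand: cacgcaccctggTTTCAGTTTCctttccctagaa
Oas1a, chr5:120907526-120907557, minus strand: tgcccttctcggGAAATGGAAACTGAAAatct
Ifit1, chr19:34640773-34640825, plus strand: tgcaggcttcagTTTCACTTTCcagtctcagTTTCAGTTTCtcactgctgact
Isg15, chr4:156200863-156200908, minus strand: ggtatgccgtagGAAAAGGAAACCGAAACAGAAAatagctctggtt
Oas3, chr5:120777713-120777746, minus strand: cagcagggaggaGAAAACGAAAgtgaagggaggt
Ifitm2, chr7:140955986-140956019, minus strand: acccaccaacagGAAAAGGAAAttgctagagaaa
Ifitm3, chr7:141010715-141010744, minus strand: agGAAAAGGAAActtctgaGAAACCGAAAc

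Of the genes in these lines, Rsad2 and Stat2 had more RNA in label-retaining cells by 2-fold or more. Oas3, Ifitm2 and Ifitm3 had less by the same measure, and Oas1a, Ifit1 and Isg15 were neither. Isg15 held 3 overlapping matches, and Ifitm3 held 2, both just after its start. Among all 15 members with a match, 2 were higher, 4 lower and 9 neither, beside 14.5% higher and 19.4% lower of all measured genes. Their median log2 ratio was 0.26. Among the 19 with a window and no match, 3 were higher, 6 lower and 10 neither, and the median was -0.16. Mx1, Mx2, Oas2, Usp18 and Zbp1 were not searched. A match is a run of letters and not a shown binding site.

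**Figure D1:**
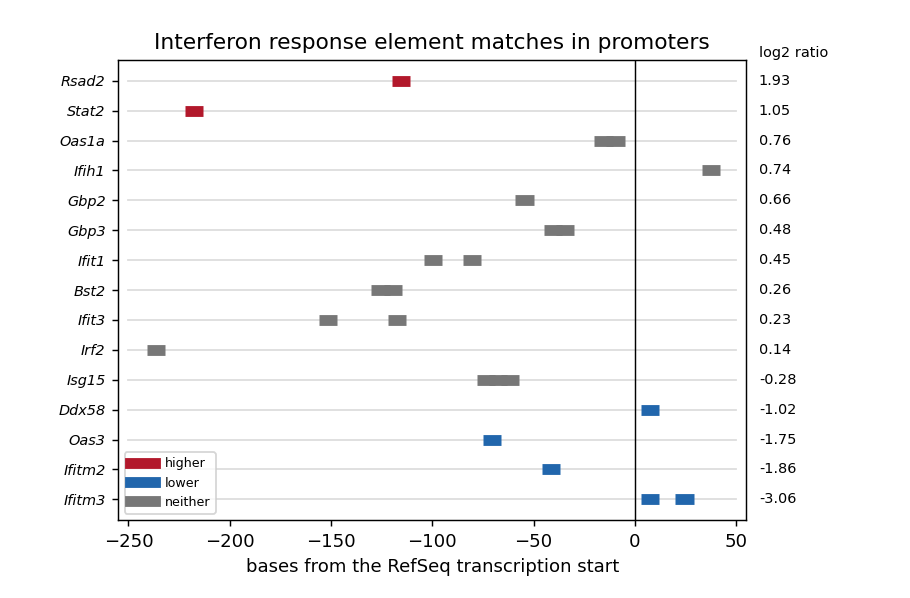
Position of each match to the response element, on either strand, relative to the RefSeq transcription start for the 15 interferon genes that held one (horizontal axis in bases), ordered by log2 ratio of the label-retaining over the non-retaining library, which stands at the right. Red marks genes at least 2-fold higher, blue at least 2-fold lower, grey neither. Matches stand in genes from 1.93 (Rsad2) down to -3.06 (Ifitm3).

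The data were 1 library per population, with 50689229 gene-assigned reads for label-retaining and 48334265 for non-retaining cells. Values are read counts after the authors' division by a size factor for each library, called normalised counts here. The ratio of a gene is the log2 of its normalised count in label-retaining over non-retaining cells, with 0.5 added to each. Its interval is an exact (Clopper-Pearson) 95% interval that covers counting error only. A gene was called higher or lower when it was at least 2-fold apart and its interval excluded equality. With 1 library per population there is no replicate check and no test between the populations, so every value compares these libraries.

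The sorts also differed in markers of other cells. The 9 luminal markers summed to 813676 normalised counts in label-retaining and 330685 in non-retaining cells, and 0 of the 9 was lower. All 7 basal markers were lower (sum 11171 against 207234), as were all 12 T and natural killer cell markers (688 against 27817, with Gzma at 0 reads in label-retaining cells) and all 6 smooth muscle markers (1611 against 22114). Endothelial markers were lower in 5 of 6 (633 against 2367) and red cell markers in 4 of 4 (438 against 9364). Fibroblast markers were lower in 2 of 6 and higher in 2 (15804 against 91098), with a median log2 ratio of 0.95. Dcn alone had 4920 against 83927, a wider gap than that of the sum, so this 1 gene set the direction of the sum. The 12 macrophage and dendritic markers summed to 1777 against 1846, with 3 higher and 2 lower, and the 4 B cell markers to 224 against 328, with 2 lower. No other marker was at 0. The part of these cells in the interferon values was not tested, and fewer cells of a type cannot be told apart from less RNA per cell.

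The interferon genes did not move as 1 block. The membrane restriction factors Ifitm1, Ifitm2 and Ifitm3, the factor genes Irf5 and Irf1 and the interferon gamma receptor gene Ifngr1 were lower in label-retaining cells. So were the antiviral effector genes Ifit2, Oasl2 and Oas3 and the sensor gene Ddx58. Oasl1, Rsad2, Mx1, Ifi44, Cmpk2 and Stat2 were higher. Cmpk2 and Stat2 fell under 2-fold when scaled to total reads (0.88 and 0.84), and Ifi44, Cmpk2 and Stat2 when scaled to Krt8 and Krt18 (0.47, 0.30 and 0.26). In all, 6 of 39 members (15.4%) were called higher, beside 14.5% of all measured genes, and 10 (25.6%) lower, beside 19.4% of all measured genes. Both shares lay near those of the whole table. At 1.5-fold, 11 members were higher and 13 lower, beside 24.2% and 26.8% of all measured genes. At 4-fold, 1 was higher and 3 lower, beside 4.32% and 9.64%. The members' median log2 ratio was 0.26 (order-statistic interval -0.77 to 0.52) and their mean -0.15, beside a median of -0.0052 over all measured genes. The median and the mean differed in sign, with the lowest member at -3.85 and the highest at 2.74. Together the 39 genes held 0.0691% of label-retaining reads (exact interval 0.0684% to 0.0698%) and 0.125% of non-retaining reads (0.124% to 0.126%). Without Ifitm3 these shares were 0.0658% and 0.0935%.

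**Figure D2:**
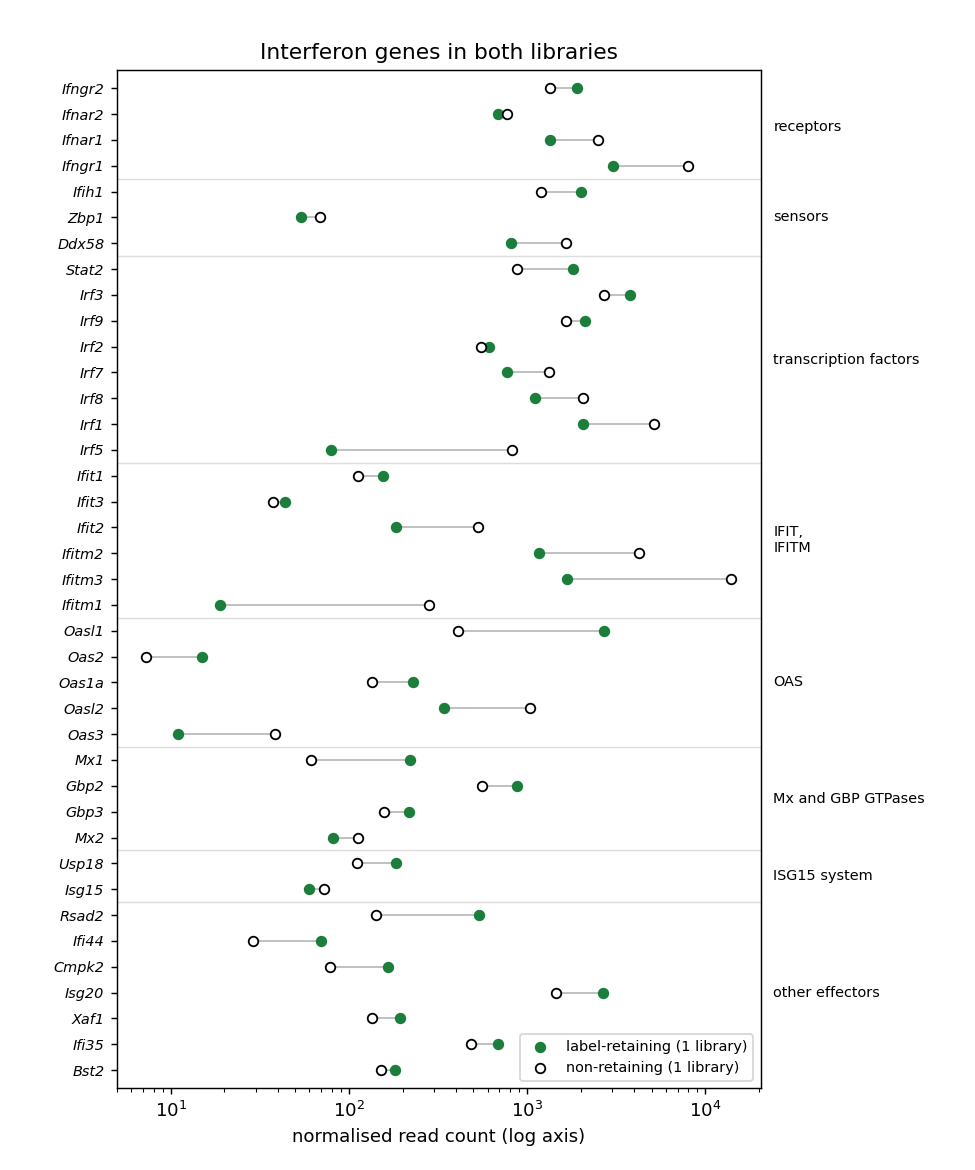
Normalised read count (log axis) of each of the 39 interferon genes in the label-retaining library (filled) and the non-retaining library (open), grouped by role, with 1 library per population. Ifitm3 has the widest gap in counts, 1678 against 14019.7, and Oasl1 stands on the other side, 2720.25 against 407.5.

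**Figure D3:**
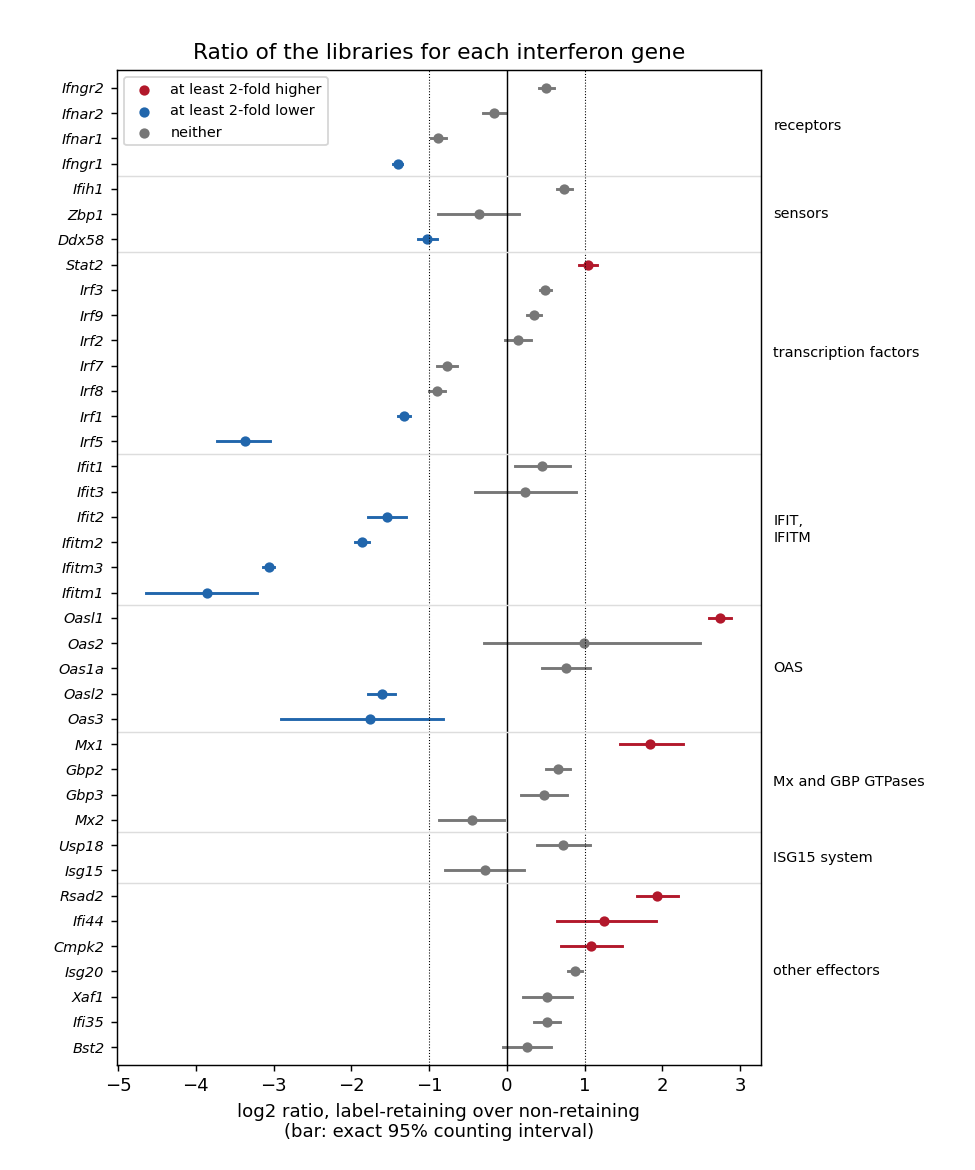
Log2 ratio of label-retaining over non-retaining normalised counts for the same genes, with the exact 95% counting interval as a bar and dotted lines at 2-fold. The ratios run from -3.85 (Ifitm1) to 2.74 (Oasl1). The 7 genes grouped as other effectors all lie above 0, as do 8551 of the 17183 measured genes. Xaf1, Ifi35 and Bst2 fall below 0 when Krt8 and Krt18 are set equal.

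Ligand genes, which come from a wider list of the pathway and are not among the 39, were scarcely represented. Ifnb1, the type I interferon beta, had 12 reads in label-retaining and 25 in non-retaining cells (log2 ratio -0.90, interval -2.05 to 0.12), which is not distinguishable from equality at this depth. Ifng, interferon gamma, had 4 reads against 59 (-3.59, -5.67 to -2.32) and was lower. It is a product of T and natural killer cells, whose 12 markers were all lower in the same library. The part of these cells in the Ifng value was not tested. The listed genes Ifnk, Ifne, Ifnl2, Ifnl3 and Trex1 were not analysed here.

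The receptor genes split under the deposited scaling. When Krt8 and Krt18 are set equal, all 4 lie below 0. Ifngr1, the ligand-binding chain for interferon gamma (ENSMUSG00000020009.11, chromosome 10, 19591949 to 19610229, plus strand, mm10), had 3035 normalised counts in label-retaining and 8030.5 in non-retaining cells, a log2 ratio of -1.40 (-1.46 to -1.34). Its partner chain Ifngr2 had 1905 against 1341 and stood on the other side, at 0.51 (0.41 to 0.61), under 2-fold. The type I receptor gene Ifnar1 had 1353 against 2492 (-0.88, -0.98 to -0.79), and its partner Ifnar2 had 689 against 769 (-0.16, -0.31 to -0.01). Ifnar2, Ifnar1 and Ifngr2 lie within 193 kb on chromosome 16, and their ratios spanned 1.39 log2 units. Levels of different genes are compared as RPKM, reads scaled to the length of the merged exons and to the library's total. On that scale the chains of the interferon gamma receptor stood at 21.1 RPKM (Ifngr1) and 9.998 RPKM (Ifngr2) in label-retaining cells and at 64.2 and 8.10 in non-retaining cells. Ifngr1 therefore exceeded Ifngr2 in both libraries on this level scale. For interferon lambda, the receptor gene Ifnlr1 of the wider list was at -0.50 (-0.62 to -0.38) and the shared chain Il10rb at 0.22 (-0.0033 to 0.44).

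The kinases that these receptors use, taken from the wider list, were all under 2-fold with the deposited scaling. Jak1, used by every interferon receptor, had 6693 normalised counts against 13272 (-0.99, -1.03 to -0.95). Jak2, of the interferon gamma receptor, was at -0.38 (-0.43 to -0.32), and Tyk2, of the type I receptor, was on the other side at 0.95 (0.83 to 1.08). Scaling to total reads lowers every ratio by 0.20, which takes Jak1 past the 2-fold line. The keratin scaling lowers every ratio by 0.78, which takes Jak2 past that line too and leaves Tyk2 nearer to equality.

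Among sensors of nucleic acid, the RNA helicases differed in direction, although Ifih1 turned to -0.04 when Krt8 and Krt18 were set equal. Ddx58, which encodes RIG-I (chromosome 4, 40203773 to 40239828, minus strand), had 809 normalised counts against 1645 and was called lower at -1.02 (-1.14 to -0.90), close to the 2-fold line. Ifih1, which encodes the related helicase MDA5, had 2007 against 1202 and was at 0.74 (0.64 to 0.84). Zbp1, a sensor of Z-form nucleic acid that can start necroptosis, had 53.9 against 69.1, and its interval held equality (-0.36, -0.89 to 0.16). On the level scale Ddx58 exceeded Ifih1 in non-retaining cells, 5.31 against 3.35 RPKM, and the order was the reverse in label-retaining cells, 2.27 against 4.86.

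Of the 8 transcription factor genes, 1 was higher, 2 lower and 5 neither, beside 14.5% higher and 19.4% lower of all measured genes. Stat2, the subunit that brings the activation domain to the type I complex, had 1822 normalised counts against 882 (1.05, 0.93 to 1.16001). Its partner Irf9 had 2110 against 1657 (0.35, 0.26 to 0.44), under 2-fold, and turned below 0 when Krt8 and Krt18 are set equal. Per exon length Irf9 exceeded Stat2 in both libraries, at 7.74 against 6.08 RPKM in label-retaining and 6.999 against 3.39 RPKM in non-retaining cells.

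Irf5, a factor of Toll-like receptor signalling known from myeloid and B cells, was the transcription factor farthest from equality, with 78.8 normalised counts against 820 (-3.37, -3.73 to -3.05). Irf1, itself induced by interferon gamma, had 2071 against 5169.6 (-1.32, -1.39 to -1.25). Irf8, a factor of myeloid and dendritic cell development, had 1104 against 2053 (-0.90, -1.001 to -0.79), and Irf7, the factor that amplifies type I interferon, 776 against 1326 (-0.77, -0.90 to -0.65). These 4 genes were all lower beyond counting error, although Irf8 and Irf7 were under 2-fold. The macrophage and dendritic markers summed to 1777 against 1846 in the same libraries, but their members went both ways. Itgax (-3.59) and Flt3 (-5.35), which dendritic cells express, were lower, while Mrc1 (1.61), Lyz2 (1.03) and Adgre1 (1.08) were higher. The rest of that list was neither, among them Siglech, whose interval held equality (-0.89, -1.95 to 0.05). The B cell markers stood at 224 against 328. The part of any of these cells in the values of these 4 genes was not tested. Irf3, the constitutive factor downstream of the sensors, was on the other side with 3810 against 2708 (0.49, 0.42 to 0.56), and Irf2, which competes with Irf1, had 611 against 553 with an interval that held equality (0.14, -0.02 to 0.31). The exons of Irf5 share 14.1% of their bases with Tnpo3 on the opposite strand.

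The IFITM genes encode small membrane proteins that block virus entry at endosomes. Ifitm3 (ENSMUSG00000025492.6, chromosome 7, 141009586 to 141010770, minus strand) had 1678 normalised counts in label-retaining and 14019.7 in non-retaining cells, a log2 ratio of -3.06 (-3.14 to -2.99). Ifitm2 had 1174 against 4258 (-1.86, -1.95 to -1.77), and Ifitm1 19.0 against 280.2 (-3.85, -4.64 to -3.22). All 3 lie within 55.9 kb on chromosome 7 and were lower. Of all measured genes, 2.76% had a ratio as low as that of Ifitm1 and 5.08% as low as that of Ifitm3. Ifitm3 was still the most abundant of the 39 genes per exon length in both libraries, at 48.9 and 470 RPKM, followed in both by Ifitm2 at 35.4 and 148. Ifitm2 is the less certain of these, since 48.5% of the 50-base words in its transcript also occur in other annotated genes. In Ifitm3 this share was 10.02% and in Ifitm1 6.36%. The listed basal, T and natural killer cell, smooth muscle and red cell markers were all lower too. The B cell, fibroblast, and macrophage and dendritic markers did not all go that way. The part of any of these cells in the IFITM values was not tested.

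The IFIT genes, whose products bind foreign RNA, did not follow the IFITM genes as a whole. Ifit2 had 183 normalised counts against 530.3 and was lower, at -1.54 (-1.79 to -1.30). Ifit1 had 155 against 113 and was at 0.45 (0.11 to 0.81), and Ifit3 had 43.9 against 37.3 with an interval that held equality (0.23, -0.41 to 0.89). The 3 genes share a cluster of 99.3 kb on chromosome 19 and spanned 1.99 log2 units. For Ifit3, 51.2% of 50-base words are shared with Ifit3b, so its count is uncertain.

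The oligoadenylate synthetase family held the highest of the 39 ratios beside some of the lower ones. Oasl1, a family member known for restraining the translation of Irf7 (ENSMUSG00000041827.14, chromosome 5, 114923240 to 114937915, plus strand), had 2720.25 normalised counts in label-retaining and 407.5 in non-retaining cells (2.74, 2.59 to 2.89). Only 1.68% of measured genes had a ratio as high. Its neighbour Oasl2, within a shared span of 41.0 kb, had 341 against 1041 and was lower, at -1.61 (-1.79 to -1.43). Per exon length this pair stood close together in non-retaining cells, at 3.55 (Oasl1) and 3.71 (Oasl2) RPKM, and far apart in label-retaining cells, at 20.6 and 1.06. The closeness depends on the length used. Merged exons span 6374 bases in Oasl2 and 2608 in Oasl1, against 3123 and 2181 in their longest coding transcripts. Neither transcript shares any 50-base word with another gene.

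The other synthetase genes had fewer reads. Oas1a, an enzyme that makes the oligoadenylate signal for RNase L, had 230 reads against 149 (0.76, 0.46 to 1.07), but 57.6% of its 50-base words also occur in other genes, Oas1g and Oas1b foremost. Oas3 had 11 reads against 42 and was called lower at -1.75 (-2.91 to -0.82). Oas2 had 15 reads against 8, and at this depth its difference was not detectable (0.99, -0.29 to 2.49). Oas2, Oas3 and Oas1a lie within 177 kb on chromosome 5.

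Of the GTPase genes, 1 was higher and 3 neither, beside 14.5% higher of all measured genes. Mx1, a dynamin-like protein that blocks influenza virus in the nucleus, had 221 normalised counts against 60.9 and was higher, at 1.85 (1.45 to 2.27). Mx2, its cytoplasmic relative, had 81.8 against 112 (-0.45, -0.87 to -0.04), on the other side of equality. GENCODE lists Mx2 as a polymorphic pseudogene. The strain is not given, so whether Mx1 or Mx2 encodes a working protein in these mice is not known. Gbp2 had 879 against 558 (0.66, 0.51 to 0.81) and Gbp3 219 against 156 (0.48, 0.19 to 0.78), and both encode guanylate-binding proteins that attack pathogen vacuoles. These neighbours on chromosome 3 differed by 0.18 log2 units.

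Isg15, a ubiquitin-like modifier, and Usp18, the protease that removes it and dampens Ifnar2 signalling, were both under 2-fold. Isg15 had 59.9 normalised counts against 72.8, with an interval that held equality (-0.28, -0.79 to 0.22). Usp18 had 184 against 111 (0.72, 0.39 to 1.07).

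The 7 remaining effectors all had ratios above 0 under the deposited scaling, as did 8551 of the 17183 measured genes. Of the 7, 3 were called higher, beside 14.5% of all measured genes. Xaf1, Ifi35 and Bst2 turned below 0 under the keratin scaling given at the end. Rsad2, which encodes viperin, an enzyme that makes a chain-terminating nucleotide (chromosome 12, 26442746 to 26456452, minus strand), had 538 normalised counts against 141 (1.93, 1.67 to 2.20). Cmpk2, a nucleotide kinase gene beside it within 37.1 kb, had 166 against 78.2 (1.08, 0.70 to 1.48). Ifi44 had 69.9 against 29.1 (1.25, 0.64 to 1.91). These 3 were called higher. Isg20, an RNA exonuclease, was the most abundant of the effectors with 2658 against 1452 and stayed under 2-fold (0.87, 0.78 to 0.96). Xaf1, a gene of cell death, was at 0.52 (0.21 to 0.84), Ifi35 at 0.52 (0.35 to 0.68), and Bst2, which tethers budding virus to the cell, at 0.26 with an interval that held equality (-0.05 to 0.57). The exons of Ifi35 share 16.8% of their bases with the antisense gene Gm11626.

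By level, the 39 genes were spread over the whole range of expression. Per exon length, 21 of them lay above the median measured gene in label-retaining cells and 23 in non-retaining cells. Their median level was 2.41 and 3.55 RPKM, beside 2.102 and 2.62 over the 17111 measured genes with a length. After Ifitm3 and Ifitm2, the order in label-retaining cells continued with Isg20 (28.3), Irf3 (21.9), Ifngr1 (21.1) and Oasl1 (20.6). In non-retaining cells it continued with Ifngr1 (64.2), Irf1 (29.6), Irf3 (17.9) and Isg20 (17.8). The lowest in label-retaining cells were Oas3 (0.031) and Oas2 (0.066).

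The wider list holds 96 further genes of the pathway, 91 of which were measured. Of these, 7 (7.69%) were higher and 16 (17.6%) lower, with a median log2 ratio of -0.22 (-0.46 to 0.03), beside 14.5% higher and 19.4% lower of all measured genes. By the end of the interval nearest to equality, the farthest lower genes were Cxcl10, a chemokine that attracts T cells, with 348 normalised counts against 2932 (-3.07, -3.24 to -2.91), and Plscr1, a membrane phospholipid scramblase, with 1547 against 9050.2 (-2.55, -2.63 to -2.47). Ifng, given above, and the guanylate-binding protein gene Gbp9 (-2.27, -2.56 to -2.001) followed. By the same measure the farthest higher genes were Aim2, a sensor of cytosolic DNA, with 837 against 278.4 (1.59, 1.40 to 1.78), Ddx60 (1.62, 1.18 to 2.097), Parp9 (1.17, 1.05 to 1.29) and Ticam1, the adaptor TRIF of Toll-like receptor signalling (1.06, 0.94 to 1.19).

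The other called genes of the wider list are named after their values were seen. Lower were Cgas (-1.57), Ciita (-2.38), Cxcl9 (-2.75), Epsti1 (-1.93), Gbp4 (-2.13), Ifi203 (-1.86), Ifi47 (-2.26), Igtp (-1.21), Irf4 (-2.25), Psmb8 (-1.28), Socs1 (-1.31) and Socs3 (-2.01). Higher were Herc6 (1.165), Ifit1bl1 (1.23) and Tor3a (1.0003). Ciita, the master regulator of MHC class II genes, rests on 12 reads against 71. Socs1 and Socs3 encode feedback inhibitors of JAK kinases and had 256 against 636 and 2441 against 9866 normalised counts.

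**Figure D4:**
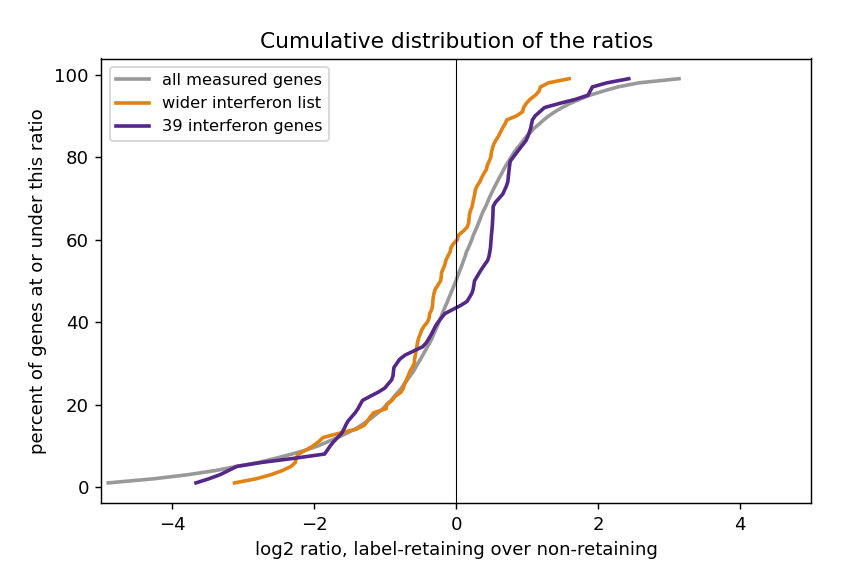
Cumulative distribution (vertical axis, percent of genes, 1st to 99th percentile) of the log2 ratio of label-retaining over non-retaining counts for the 39 interferon genes, the 91 measured genes of the wider list and all 17183 measured genes, with the horizontal axis drawn from -5 to 5. The median is 0.26 for the 39 genes, -0.22 for the wider list and -0.0052 for all genes, and the curves overlap over most of their range.

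Directions near equality depended on how the libraries were scaled. Scaling to the total reads of the table lowered every log2 ratio by 0.20, which gave 4 members higher and 12 lower, beside 11.1% and 23.3% of all measured genes. Setting the summed luminal keratin reads (Krt8 and Krt18) equal lowered every ratio by 0.78 and gave 3 higher and 16 lower, beside 5.23% and 41.3% of all measured genes. Under that scaling the sign changed for 14 members, among them Ifih1, Irf3, Irf9, Ifngr2, Ifit1, Oas1a, Gbp2, Gbp3 and Usp18, and 4 of the 7 other effectors kept a ratio above 0 while Xaf1, Ifi35 and Bst2 did not. Oasl1, Mx1 and Rsad2 were called higher, and the 10 lower members lower, under every scaling tried. No scaling tried raised the ratios by more than 0.013 log2 units, so these scalings put only the higher calls under strain. For the wider list of 91 the split was 2 higher and 21 lower with total reads and 0 and 46 with the keratins, beside the same shares of all measured genes.

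**Figure D5:**
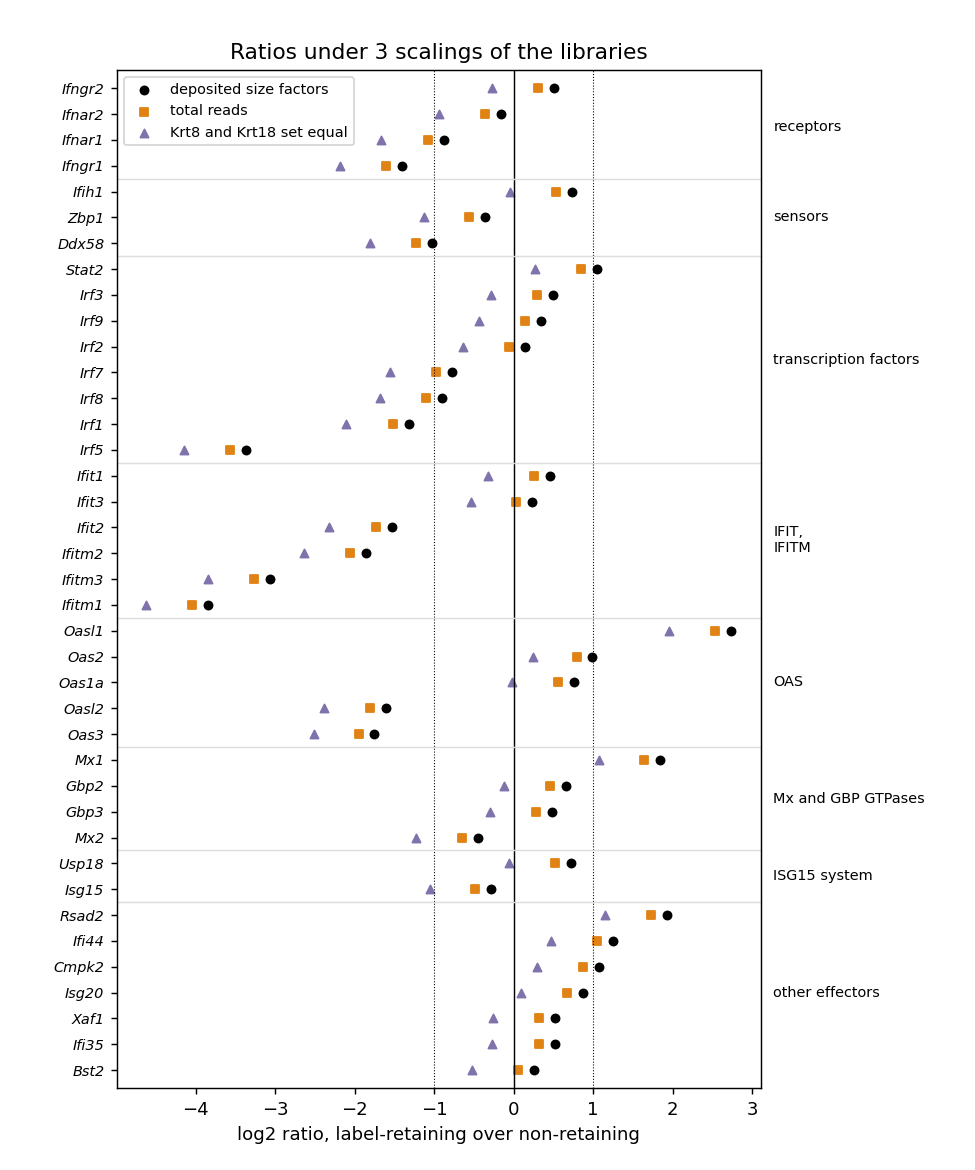
Log2 ratio of each of the 39 genes under the deposited size factors (circles), the total reads of the table (squares) and equal Krt8 and Krt18 reads (triangles), with dotted lines at 2-fold. The keratin scaling moves every gene down by 0.78, which takes 14 of them across 0 and leaves Oasl1, Rsad2 and Mx1 above the upper line.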

How the data were processed

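The authors deposited 1 table with a normalised signal per gene and library, that is, read counts divided by 1 size factor per library (1.00 label-retaining, 1.10 non-retaining), as the values show: 100% were whole multiples of 1 step per column, within 5.6e-09 of a read. Per the labels' protocols, the library kit marks strand. The submitters' processing notes list DESeq 1.16.0, HTSeq 0.6.0, TopHat2 2.0.10, Bowtie2 2.1.0, CASAVA 1.8.2 and the mm10 build, without roles. Annotation, strand setting and treatment of shared reads: not given in the sources used here.

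Symbols, exons and transcripts came from GENCODE M21 (GRCm38), with 18634 identifiers matched and 90 not. One listed gene, Mb21d1, was matched as Cgas through RefSeq synonyms. Promoters came from RefSeq (GRCm38.p6). Bases 251 to 280 of 31 of 41 member windows were found in a GENCODE transcript of the gene. Levels (RPKM) are recovered reads scaled to merged exon length and to the total reads of the table. Intervals are about 0.41 log2 units to each side at 100 reads in each library and 0.13 at 1000. Calls were tested on simulated reads that held counting error only, so that test does not cover variation between animals, sorts or libraries. All 39 members were named, and of the wider list the 4 farthest genes in each direction by interval bound, ligands, receptors and kinases. One listed gene is not reported here. Members and lists were chosen with earlier results of these data known. Tools were Python 3.11.15, numpy 2.4.6, scipy 1.17.1, pandas 2.3.3 and matplotlib 3.10.9.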

Additional observations from a re-analysis of the deposited data

How the results depend on the processing

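Other scalings, pseudocounts, minimum counts, fold thresholds and gene subsets were tried. With a threshold of 1.5-fold 11 members were higher and 13 lower, beside 24.2% and 26.8% of all measured genes. With 4-fold 1 was higher and 3 lower, beside 4.32% and 9.64%. The keratin scaling gave 3 higher and 16 lower members. Without 12 members listed for having a relative in the same gene family, 6 were lower. That list was not set by shared sequence, since it holds Oasl1 and Oasl2, which share no 50-base word with another gene. For the wider list, total reads gave 2 higher, the keratin scaling 0 higher, 46 lower and a median of -1.004, and a minimum of 100 counts gave 10 lower. By construction, these settings move the call threshold, move every ratio by 1 constant or count fewer genes. The members' median changed sign with the keratins, to -0.52, and stayed above 0 under the other alternatives tried. All these values lay within its order-statistic interval. That interval describes the spread among the genes and does not measure the effect of scaling. The median-of-ratios and TMM scalings and pseudocounts of 1 and 5 called the same 16 members. Leaving out the 3 members that share at least 10% of exon bases with another gene, chosen after seeing the data, gave 6 higher and 8 lower. The alternatives for the wider list were also added after seeing the data. No paired analysis was possible because each population has 1 library. Low read numbers limit Oas2 and Oas3 among the members and Ifng, Gbp6, Ifit1bl1 and Ifnb1 in the wider list.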
